A study of Mus musculus with 4 samples.

Results

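The genes described here are 9 of the 30406 measured in every library: Bpgm, 7 enzymes of the lower part of glycolysis (Aldoa, Tpi1, Pgk1, Pgam1, Eno1, Pkm and Ldha) and Ckb. They were chosen by name as a set, and the choice was made from values of this same comparison, in which Bpgm and Ckb stood high in fibroblasts after duct ligation. The levels by cell class and the differences between ligated and mock libraries are therefore a description and carry no test. Single-cell RNA sequencing in 10x Genomics droplets was done on stroma-enriched submandibular gland cells from female mice of the C57BL6/J strain. In the ligated group (1 library) a metal clip had closed the main ducts for 14 days, and in the mock group (3 libraries, called mock 1, 2 and 3) the ducts were located and not clipped. All 4 libraries had been depleted of epithelial cells by an EpCAM antibody and of red blood cells by a Ter119 antibody, and of dead cells. The protocol speaks of harvesting submandibular and sublingual glands, and the age of the mice and the number of animals behind a library are not given in the sources used here.

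Glycolysis turns glucose into pyruvate, and its lower part runs from the aldolase step to pyruvate kinase and, where pyruvate is reduced to lactate, to lactate dehydrogenase. Bisphosphoglycerate mutase, the product of Bpgm, sits on a side branch: it turns the bisphosphoglycerate made before the phosphoglycerate kinase step into an isomer that binds haemoglobin and lowers its affinity for oxygen, and it is best known from red blood cells. Creatine kinase B, the product of Ckb, moves phosphate between ATP and creatine and so buffers the ATP pool. Because Bpgm is a red cell gene and droplets can carry free RNA, its reads in other cells were set beside those of the haemoglobin genes.

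Bpgm (ENSMUSG00000038871) lies on chromosome 6, 34476207 to 34505613 on the plus strand of the mm10 build, and Ckb (ENSMUSG00000001270) on chromosome 12, 111669361 to 111672338 on the minus strand. Ldha (ENSMUSG00000063229) lies on chromosome 7, 46841475 to 46855627, and Pgk1 (ENSMUSG00000062070) on chromosome X, 106187100 to 106203699, both on the plus strand. The promoter windows of these genes from RefSeq (GRCm38.p6, 250 bases before to 50 after a gene start) are shown to set the genes with the largest differences, Bpgm and Ckb, beside a pair of lower glycolytic enzymes with smaller differences. Capitals mark ACGTG, the core letters bound by hypoxia-inducible factors (HIF), found on either strand (as ACGTG or CACGT), and where the letters read CACGTG there is a match on both strands.
Bpgm, chr6:34476106-34476405, plus strand: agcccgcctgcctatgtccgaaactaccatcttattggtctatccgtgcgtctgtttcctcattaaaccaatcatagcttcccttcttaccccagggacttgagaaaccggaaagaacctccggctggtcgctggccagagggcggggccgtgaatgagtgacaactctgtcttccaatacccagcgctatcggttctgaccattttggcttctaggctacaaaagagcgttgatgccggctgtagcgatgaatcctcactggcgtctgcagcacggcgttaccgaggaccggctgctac
Ckb, chr12:111672289-111672588, minus strand: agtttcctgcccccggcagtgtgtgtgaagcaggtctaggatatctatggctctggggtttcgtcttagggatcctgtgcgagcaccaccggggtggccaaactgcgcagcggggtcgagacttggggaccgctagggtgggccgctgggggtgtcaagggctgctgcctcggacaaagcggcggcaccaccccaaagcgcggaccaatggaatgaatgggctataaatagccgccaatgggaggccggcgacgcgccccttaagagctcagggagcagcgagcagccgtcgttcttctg
Ldha, chr7:46845554-46845853, plus strand: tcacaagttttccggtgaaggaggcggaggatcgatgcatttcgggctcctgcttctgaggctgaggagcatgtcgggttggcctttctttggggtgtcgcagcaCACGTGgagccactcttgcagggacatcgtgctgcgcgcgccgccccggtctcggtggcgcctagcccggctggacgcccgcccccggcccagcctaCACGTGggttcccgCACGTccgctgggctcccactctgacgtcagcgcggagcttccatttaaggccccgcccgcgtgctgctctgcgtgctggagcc
Pgk1, chrX:106186850-106187149, plus strand: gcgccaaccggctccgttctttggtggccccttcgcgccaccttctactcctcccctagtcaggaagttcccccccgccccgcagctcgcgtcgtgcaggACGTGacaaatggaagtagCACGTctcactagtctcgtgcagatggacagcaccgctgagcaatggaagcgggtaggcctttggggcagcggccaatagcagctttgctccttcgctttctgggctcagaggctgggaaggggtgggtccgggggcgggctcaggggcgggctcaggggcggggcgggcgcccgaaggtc
The Ldha window shown held 5 matches and another Ldha window, not shown, held 0, while the Pgk1 window held 2 and the Bpgm and Ckb windows held 0. Of all 32851 promoter windows of this length 19.6% held a match. A match is a description of letters, and a window with 0 matches says only that these letters are not in it. The 9 genes had 15 windows, since some have several starts, and 6 of the 15 held a match. These 6 belonged to 5 of the 9 genes. Of the lower glycolytic enzymes not shown, Pgam1, Aldoa and Pkm had a window with a match. The windows of Eno1 and Tpi1 held 0, as did those of Bpgm and Ckb.

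The libraries held 4798 to 13790 barcodes and 29897488 to 80187555 UMIs (molecular barcodes, 1 for each transcript caught). After filters and doublet removal 12564, 4514, 9069 and 12691 cells remained in the ligated library and mock 1, 2 and 3. Fibroblast-like cells, which carry collagen genes and Pdgfra, numbered 1203 against 205, 407 and 577, and all 6 of their markers were detected in each fibroblast cluster. Endothelial-like cells numbered 4149 against 2658, 5055 and 6800, and erythroid cells 36 against 70, 108 and 185. The summed counts of mock 2 and mock 3 fibroblasts were close, with a chi-square over its degrees of freedom of 1.79, where mock 1 gave 19.8 and 20.9 against these libraries. Headers of the ligated and mock 1 files name Cell Ranger 6.0.1 and those of mock 2 and 3 name 7.0.0, so log2 ratios over mock 1 alone are given beside the pooled ones. No label says that the libraries came from separate animals. Pairs of libraries shared 11 to 61 barcodes.

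In fibroblasts Bpgm stood at 149 CPM in the ligated library and at 13.2, 8.65 and 10.1 CPM in mock 1, 2 and 3 (CPM, UMIs scaled to a fixed total per class and library by the TMM library size). The ligated value was 14.1 times the mock mean of 10.6 ± 2.32 CPM (SD, n = 3). As a log2 fold change in edgeR's fit this was 3.83 ± 0.26 (standard error). Over mock 1 alone the log2 ratio was 3.41. Bpgm ranked 40 of 12423 genes tested by log2 fold change. These levels rest on 1658 Bpgm UMIs in the ligated fibroblasts and on 28, 29 and 40 in the mock fibroblasts. A bulk sum of this kind does not tell more cells with the transcript from more transcript per cell, so both were counted.

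The ligated fibroblasts were uneven in Bpgm. Of the 1203 cells, 739 (61.4%) had 0 Bpgm UMIs, 178 had 1, 83 had 2, 203 had 3 or more and 31 had 10 or more, with up to 33 in a cell. The 75 cells highest in Bpgm (6.23% of the cells) held 50% of its UMIs. The mean was 1.38 UMIs per cell, and a Poisson spread around that mean would leave 25.2% of cells at 0. An excess at 0 was also found for Ckb (16.8% against 0.820%) and Ldha (24.2% against 9.13%) in the same cells, so it was not particular to Bpgm. In the mock libraries the highest cell had 2, 3 and 3 UMIs. There the share at 0 was 87.3, 94.1 and 93.8%, against 87.2, 93.1 and 93.3% under a Poisson spread. The mock means were 0.137, 0.0713 and 0.0693 UMIs per cell. At such means most cells hold 0 under any spread, so these shares cannot tell even from uneven counts. For Ckb, with higher means, the mock shares at 0 were 41.5, 47.7 and 58.1%, against 23.0, 37.7 and 42.9%. A Poisson spread around a single mean also leaves out differences in depth between cells. Ckb was spread more widely over the ligated fibroblasts, with 202 cells (16.8%) at 0 and 203 cells holding 50% of its 5779 UMIs.

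Clusters of fibroblasts, drawn without the 9 genes, differed in Bpgm. At a resolution of 2.0, looked at after the uneven counts were seen, the fibroblasts fell into 4 clusters. The cluster led by Thbs4, Spp1, Cilp and Timp1 held 644 ligated fibroblasts and only 19, 4 and 3 mock cells. In its ligated cells Bpgm stood at 200 CPM (exact Poisson 95% interval 190 to 211, unscaled), and they held 1536 of the 1658 Bpgm UMIs (92.6%) with 53.5% of the cells. The cluster led by Ccn5, Apod and Podn held 519 ligated cells and 50, 28 and 52 mock cells. Bpgm there was 31.4 CPM (25.9 to 37.6) in the ligated library against 13.5, 60.1 and 28.0 CPM in mock 1, 2 and 3, from 5, 8 and 6 UMIs, so the ligated value lay within the mock range. The cluster led by Lsamp and Fgf10 held most mock fibroblasts (124, 369 and 515) and 18 ligated cells. Its Bpgm level was 9.24, 6.09 and 9.60 CPM in the mock libraries, and 1 UMI was found in the ligated cells. A small cluster led by Pi16 and Dpt had 12.1 CPM in 22 ligated cells, from 4 UMIs.

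The high Bpgm level of ligated fibroblasts was thus measured in cells of a cluster that hardly occurred in the mock libraries. Clusters were drawn with no correction for library. Some clusters of other classes held mostly mock 2 and 3 cells, which share a header version. An endothelial cluster led by Kirrel3, for instance, held 7 ligated cells and 39, 1334 and 1632 cells of mock 1, 2 and 3. Whether the fibroblast clusters split by surgery or by version was not tested. In mock 1, the mock library with the most cells of the Thbs4 and Spp1 cluster, Bpgm stood at 22.4 CPM there (8.23 to 48.8), from 6 UMIs in 19 cells. The interval covers counting error only, and the counts were uneven between cells, so the levels are given side by side with no comparison. Mock 2 and 3 had 4 and 3 such cells with 3 and 0 Bpgm UMIs, too few to compare. The share of cells with a Bpgm UMI, after each cell was thinned to 1000 UMIs, was 14.9% (exact binomial 95% interval 12.3 to 17.9%) in the ligated cells of that cluster and 2.86% (1.57 to 4.76%) in those of the Ccn5 and Apod cluster. Unthinned these shares were 58.9 and 15.4%, at median depths of 11995 and 7350 UMIs.

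**Figure D1:**
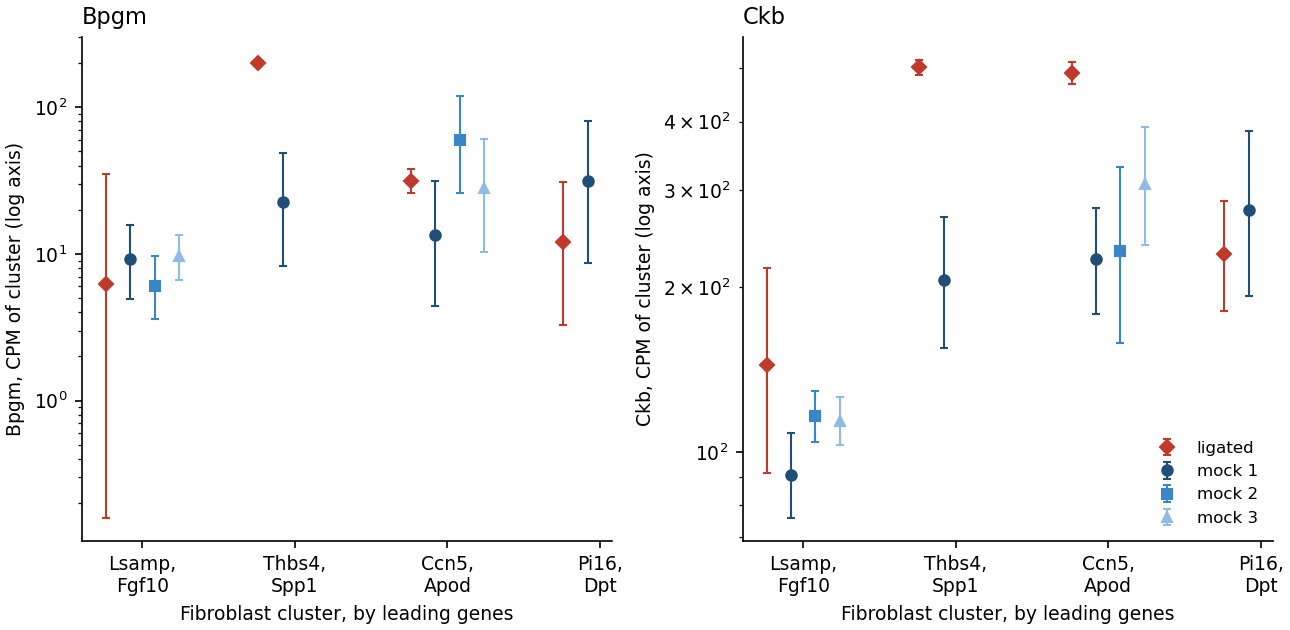
Bpgm (left) and Ckb (right) in the 4 fibroblast clusters, named on the x axis by leading genes, as unscaled CPM on a log y axis. Points are libraries with at least 10 cells in the cluster and bars are exact Poisson 95% intervals. The ligated Bpgm point reaches 200 CPM in the Thbs4 and Spp1 cluster and 31.4 CPM in the Ccn5 and Apod cluster, whereas the ligated Ckb points of both clusters lie near 500 CPM, at 503 and 490.

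Haemoglobin RNA did not follow Bpgm in fibroblasts. The 4 haemoglobin genes Hba-a1, Hba-a2, Hbb-bs and Hbb-bt, the alpha and beta globin chains, together stood at 48.1 CPM (unscaled) in ligated fibroblasts and at 73.7, 50.1 and 41.7 CPM in mock 1, 2 and 3, so the ligated sum lay within the mock range. In the erythroid cells of the same libraries there were 0.725, 1.05, 1.02 and 1.09 Bpgm UMIs per 1000 haemoglobin UMIs. In fibroblasts there were 2899 per 1000 (95% interval 2634 to 3193) in the ligated library against 175, 180 and 250 in mock 1, 2 and 3. At the erythroid ratio of its own library, the haemoglobin in ligated fibroblasts would come with 0.0349 CPM of Bpgm, against the 139 CPM (unscaled) measured. The macrophage markers that were also higher in ligated fibroblasts would come with 0.0697 CPM of Bpgm at the ratio of ligated macrophages or monocytes. In mock fibroblasts the same reckoning gave 0.0773, 0.0512 and 0.0454 CPM against 12.9, 9.03 and 10.4 measured. The reckoning takes the ratio of a library's erythroid cells to hold in its other cells, which was not so everywhere. The unnamed ligated clusters had 135 Bpgm UMIs beside 87976 of haemoglobin, where the ligated erythroid cells had 45 beside 62086.

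The share of cells with Bpgm was then set beside haemoglobin cell by cell. The 1203 ligated fibroblasts held only 572 haemoglobin UMIs, so whether a cell held any was largely a matter of sampling. Like shares on both sides of such a split therefore cannot tell where Bpgm reads came from. Among ligated fibroblasts, 316 of 812 cells with 0 haemoglobin UMIs had a Bpgm UMI (38.9%, exact binomial 95% interval 35.5 to 42.4%), and 148 of 391 cells with at least 1 haemoglobin UMI did (37.9%, 33.0 to 42.9%). After thinning to 1000 UMIs, with the split by the thinned haemoglobin UMIs, the shares were 9.80% (8.13 to 11.7%) and 7.69% (1.62 to 20.9%). The 12 cells with 3 or more haemoglobin UMIs had a share of 58.3%, with an interval of 27.7 to 84.8%. In mock 1, where depth per cell was highest, the unthinned shares were 8 of 100 cells (3.52 to 15.2%) without and 17.1% (10.5 to 25.7%) with a haemoglobin UMI. In mock 2 they were 6.05 and 5.38%, and in mock 3 29 of 468 and 7 of 109 cells. Over all fibroblasts the thinned share was 9.73% in the ligated library against 1.99, 0.744 and 1.41% in mock 1, 2 and 3, with 31, 4, 4 and 11 shallower cells left out. Unthinned it was 38.6% against 12.7, 5.90 and 6.24%. In macrophages or monocytes, which served as a class with little Bpgm, the thinned share was 0.938% in the ligated library and 0, 0.939 and 0% in the mock libraries. The mock fibroblast shares, 0.744 to 1.99%, lay nearer to these than the ligated one did. The mock 1 share of macrophages or monocytes rests on 65 thinned cells. These cells also carried haemoglobin, with 15349 CPM (unscaled) in a mock 1 cluster of 38 cells, so they are not a class free of erythroid RNA. Median depths were 9430 UMIs in ligated fibroblasts and 6277 in ligated macrophages or monocytes.

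**Figure D2:**
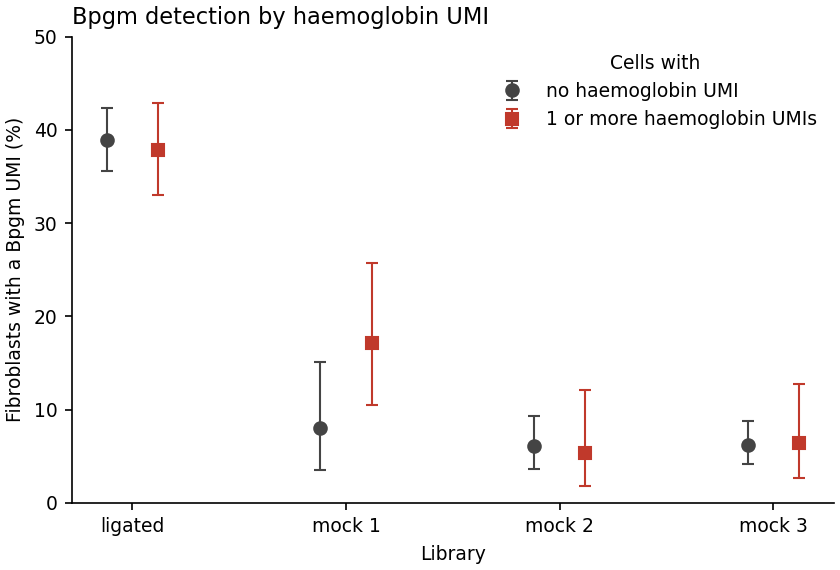
Share of fibroblasts with a Bpgm UMI (y axis, percent, unthinned) in each library (x axis), for cells with 0 haemoglobin UMIs (circles) and with 1 or more (squares), with exact binomial 95% intervals. The pair of ligated shares, 38.9 and 37.9%, overlap in their intervals and lie above all mock shares. Few haemoglobin UMIs fell in each cell, so the overlap cannot tell where Bpgm reads came from.

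Other erythroid genes were set beside Bpgm as well. Alas2, the first enzyme of haem synthesis in red cells, had 0 UMIs in the 1203 ligated fibroblasts, which allows up to 0.310 CPM, and 103 UMIs (329 CPM, unscaled) in the 36 ligated erythroid cells. Slc4a1 (the band 3 anion exchanger), Epb42, Hemgn, Rhag and Car1 also had 0 UMIs in ligated fibroblasts. Their 0 carries no information on erythroid RNA, since the ligated erythroid cells themselves had 1 UMI of Slc4a1 and 0 of the other 4. Several genes of the list were present in ligated fibroblasts. Of the list of 15 other erythroid genes, 6 passed the low count filter in fibroblasts. Of these 2 lay above and 3 below all mock libraries, where 29.8% of all genes lay above and 28.7% below. The median log2 fold change was -0.03, as it was over all genes (-0.03). Car2, a carbonic anhydrase, stood at 13.1 CPM against 3.76, 1.19 and 4.27, and Slc25a37 (mitoferrin), which brings iron into mitochondria, at 9.18 against 2.35, 3.58 and 3.77. Fech, the last enzyme of haem synthesis, stood at 49.0 against 51.3, 52.2 and 51.5.

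Over all classes and libraries together, the genes with a pattern most like that of Bpgm included Alas2 and globin genes. The unscaled Bpgm level in erythroid cells was 390, 386 and 420 CPM in mock 1, 2 and 3 and 144 CPM (105 to 192) in the 36 ligated erythroid cells, which overlaps the level in ligated fibroblasts. Those ligated erythroid cells also held less haemoglobin, at 198275 CPM against 372558, 377575 and 386135 in mock 1, 2 and 3. Over 38 sums of class and library, and among 10197 genes, genes among the 5 most like Bpgm by Pearson correlation of log2(CPM + 1) were Alas2 (0.86), Hbb-bt (0.82), Hba-a1 (0.77) and Hbb-bs (0.77). These sums share libraries and differ in depth, and the correlations are a description.

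Bpgm was then compared in the 5 other classes that could be tested. In endothelial cells it stood at 23.5 CPM in the ligated library against 12.5, 10.0 and 9.24 CPM in mock 1, 2 and 3, above all mock libraries, with a log2 fold change of 1.15 ± 0.24 and a log2 ratio of 0.86 over mock 1. Most ligated endothelial cells (2671) lay in a cluster led by Aqp1 with 27.2 CPM (24.4 to 30.2, unscaled), which held 336, 43 and 40 mock cells at 14.0, 27.5 and 17.7 CPM. A cluster led by Edn1 and Stmn2, with 615, 274, 545 and 741 cells, had 22.2 CPM in the ligated library against 22.7, 7.25 and 9.01 in mock 1, 2 and 3. Markers of fibroblasts were also higher in ligated endothelial cells, at a sum of 159 CPM against 11.4 to 23.0, with 6 of 6 above all mock libraries. At the ratio of Bpgm to these markers in ligated fibroblasts they would come with 0.779 CPM of Bpgm, against 24.1 measured (unscaled). In mural cells (10.9 CPM against 13.3, 10.5 and 15.2), in NK or ILC1 cells (12.2 against 12.5, 10.6 and 9.68), in T cells (13.0 against 9.63, 13.0 and 15.3) and in macrophages or monocytes (8.13 against 13.2, 6.71 and 4.76) the ligated value lay within the mock range.

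**Figure D3:**
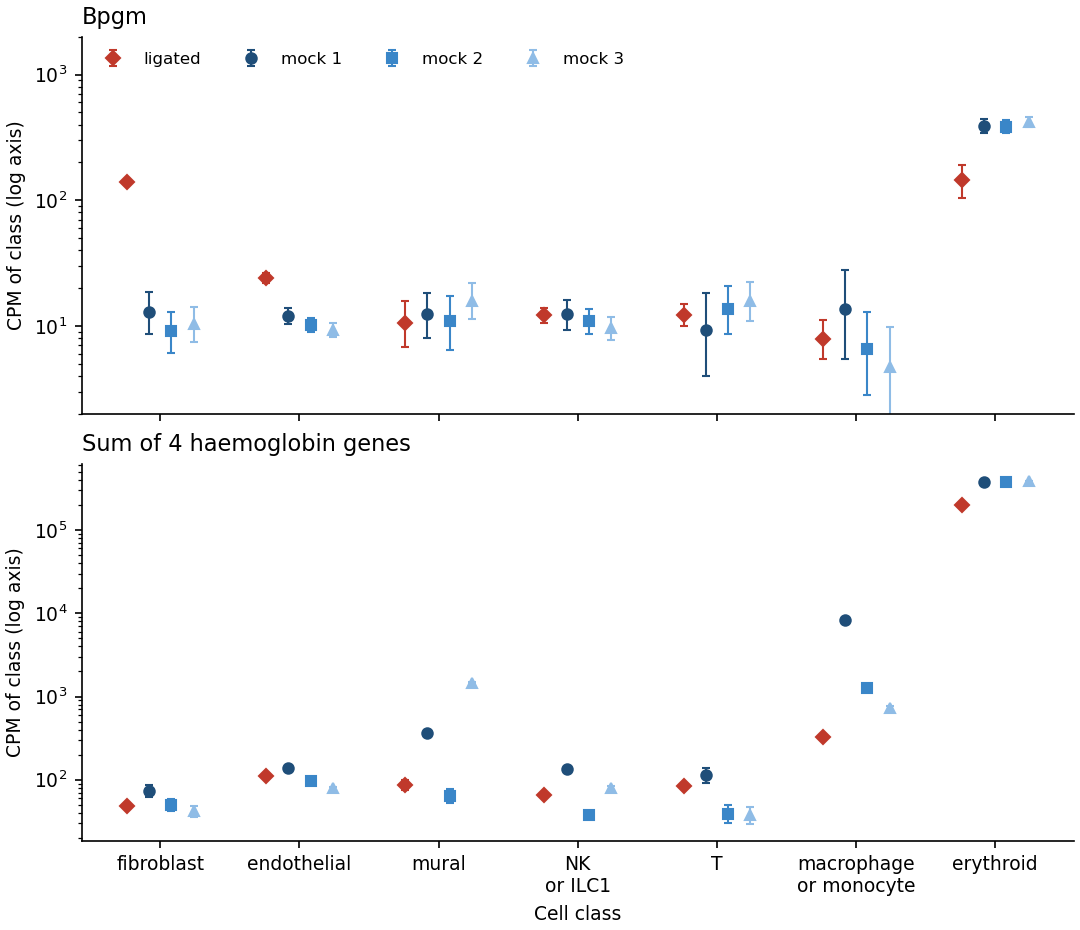
Bpgm (top) and the sum of the 4 haemoglobin genes (bottom) by cell class (x axis) and library, as unscaled CPM on log y axes with exact Poisson 95% intervals (the lower end for mock 3 macrophages or monocytes, 1.90 CPM, falls below the axis). The ligated fibroblast point for Bpgm (139 CPM) lies above the mock points (9.03 to 12.9 CPM), while that for haemoglobin (48.1 CPM) lies among them.

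Ckb, creatine kinase B, was the other gene that stood high in ligated fibroblasts. It was at 520 CPM in the ligated library and at 142, 118 and 123 CPM in mock 1, 2 and 3. The log2 fold change was 2.03 ± 0.19, and 1.87 over mock 1 alone. Unlike Bpgm, it was at a like level in the main pair of ligated clusters, 503 CPM in the Thbs4 and Spp1 cluster and 490 in the Ccn5 and Apod cluster (unscaled). In the latter it exceeded all mock libraries, which had 225, 233 and 308 CPM from 50, 28 and 52 cells. In the Thbs4 and Spp1 cluster mock 1 had 206 CPM (155 to 268) from 19 cells. In the Pi16 and Dpt cluster the ligated level of 229 CPM lay among the mock values of 277, 234 and 220, and in the Lsamp and Fgf10 cluster it was 144 CPM (91.5 to 217, 18 cells) against 91.0, 116 and 114. The thinned share of fibroblasts with a Ckb UMI was 33.1% against 7.96, 11.7 and 10.8%. In ligated fibroblasts it was 36.0% among cells with a thinned Bpgm UMI and 32.8% among those without.

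Ckb was lower in the ligated library in 4 of the 5 other classes tested. In endothelial cells it stood at 53.4 CPM against 103, 70.4 and 67.2, below all mock libraries. The same held in mural cells (468 against 711, 521 and 479), the contractile cells of vessel walls, in NK or ILC1 cells (38.0 against 54.3, 47.6 and 50.2) and in T cells (66.6 against 83.1, 153 and 100.1). Endothelial cells, mural cells and macrophages or monocytes mix clusters in shares that differ between libraries. In the Aqp1 cluster of endothelial cells Ckb was at 49.8 CPM (unscaled) in the ligated library and at 42.7, 41.2 and 35.3 in mock 1, 2 and 3, and in the Edn1 and Stmn2 cluster at 87.3 against 218, 110 and 82.0. In macrophages or monocytes it was above all mock libraries, at 748 CPM against 448, 529 and 469. A cluster led by Retnla and Lyz2 held 177 of the 569 ligated cells but 38 of 70, 185 of 276 and 264 of 380 in mock 1, 2 and 3, and the rest lay in a cluster led by C1qa. Ckb in the C1qa cluster was at 768 CPM (unscaled) in the ligated library and at 529, 502 and 517 in the mock libraries. In the Retnla and Lyz2 cluster it was at 521 against 388, 542 and 410, within the mock range. Of the mural clusters, the one led by Rgs5 held 462 ligated and 197, 41 and 79 mock cells, with Ckb at 183 against 228, 162 and 122, within the mock range. That led by Myh11 held 101 ligated and 67 mock 1 cells, at 1102 and 1282 CPM, with 1 and 8 cells in mock 2 and 3, while most mural cells of mock 2 and 3 lay in clusters with 2 and 0 ligated cells.

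Markers of macrophages and mural cells, which carry Ckb, were counted in fibroblasts. In ligated fibroblasts all 7 macrophage markers were above all mock libraries, with a sum of 161 CPM against 16.8 to 26.8, and the T cell markers summed to 61.8 against 11.5 to 18.7 CPM. At the ratio of Ckb to markers in ligated macrophages, the macrophage markers would come with 6.41 CPM of Ckb, and the mural markers (199 CPM, within the mock range of 79.3 to 224) with 4.48 CPM, against 486 measured (unscaled). Over the 38 sums the genes most like Ckb were Stbd1 (0.89), Grk3 (0.88), Cacnb3 (0.87), Lrrc3 (0.83) and Ppfibp2 (0.83).

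Of the 7 glycolytic enzymes 4 lay above all mock libraries in fibroblasts, where 29.8% of all 12423 genes did. Each was above by less than Bpgm and Ckb, and nothing is read from the count. Aldoa, the aldolase that splits the hexose, stood at 305 CPM against 391, 304 and 309. Tpi1, which interconverts the triose phosphates, stood at 126 against 126, 101 and 98.2, and Pgk1, the first step that yields ATP, at 78.8 against 109, 68.0 and 69.9. These ligated values lay within the mock range. Pgam1, the phosphoglycerate mutase of the main path, stood at 131 against 97.4, 85.0 and 87.4, and Eno1, enolase, at 55.4 against 39.5, 33.1 and 28.4. Pkm, pyruvate kinase, stood at 208 against 183, 133 and 128, and Ldha, lactate dehydrogenase A, at 259 against 214, 134 and 131. These 4 were the ones above all mock libraries, with log2 fold changes of 0.55 ± 0.20 for Pgam1, 0.72 ± 0.26 for Eno1, 0.50 ± 0.27 for Pkm and 0.70 ± 0.34 for Ldha. For Pkm and Ldha mock 1 lay nearest to the ligated library, and over mock 1 alone the log2 ratios were 0.19 and 0.28, against 0.43 for Pgam1 and 0.48 for Eno1. Ldha was at 289 CPM (277 to 302, unscaled) in the ligated cells of the Thbs4 and Spp1 cluster. In those of the Ccn5 and Apod cluster it was at 160 CPM (147 to 173), whereas Eno1 was at 53.3 and 50.4 CPM. In the Thbs4 and Spp1 cluster the 19 mock 1 cells had 284 CPM of Ldha and 29.9 of Eno1. There Pgam1 was at 122 CPM against 120 in mock 1, and Pkm at 193 against 224. In the Ccn5 and Apod cluster Ldha lay below its levels of 208, 180 and 168 CPM in mock 1, 2 and 3. Eno1 there lay within its mock values of 51.4, 60.1 and 18.7. Pgam1 (125 against 111, 113 and 88.6) and Pkm (202 against 181, 143 and 177) lay above all mock libraries there. Macrophage and T cell markers were higher in ligated fibroblasts, as given above, and their part in the small differences was not tested.

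In immune cells several of the enzymes were higher in the ligated library. In macrophages or monocytes Eno1 stood at 129 CPM against 84.8, 85.6 and 67.4, Tpi1 at 144 against 105.5, 83.1 and 85.1, Pkm at 307 against 251, 169 and 131 and Aldoa at 363 against 335, 242 and 242. By cluster, Eno1 was at 135 CPM (unscaled) against 69.3, 76.7 and 74.2 in the C1qa cluster, which held most ligated cells, and at 76.8 against 108.5, 95.2 and 59.0 in the Retnla and Lyz2 cluster, within the mock range. In T cells Tpi1 stood at 112 against 74.7, 66.9 and 68.0, and Pgam1 at 90.3 against 68.6, 67.5 and 79.5. In NK or ILC1 cells Pkm stood at 168 against 142, 107 and 107, and Pgam1 lay below all mock libraries, at 77.3 against 89.9, 80.3 and 84.2. These are values of the whole class, whose clusters differ in share between libraries, as given above. Tpi1 and Pkm each lay above all mock libraries in 5 of the 6 classes tested, the exception being fibroblasts for Tpi1 and mural cells for Pkm. In each class 26.1 to 29.8% of all genes lay above, and nothing is read from this count. Over mock 1 alone the log2 ratios in those classes were 0.04 to 0.29 for Pkm and 0.08 to 0.59 for Tpi1. For Pkm in endothelial cells the ligated library stood at 230 CPM against 223, 136 and 131 in mock 1, 2 and 3.

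Of the 9 genes, 6 lay above all mock libraries in fibroblasts and 0 below, where 29.8% of all 12423 genes lay above and 28.7% below. Since values of this contrast chose the genes, nothing is read from that count. The median log2 fold change of the 9 was 0.55, and 0.28 over mock 1 alone, against -0.03 and 0.01 over all genes. In endothelial cells 3 lay above (Bpgm, Tpi1 and Pkm) and 1 below (Ckb), where 29% and 27.3% of 14159 genes did. In mural cells it was 1 above and 1 below (26.6% and 25.8% of all genes), in NK or ILC1 cells 4 and 2 (27.3% each way), in T cells 6 and 1 (27.7% and 26.2%) and in macrophages or monocytes 5 and 0 (26.1% and 24.2%). By edgeR's quasi-likelihood test 0 genes (0%) passed an adjusted p of 0.05 in any of these 6 classes, with 1 ligated library and 2 residual degrees of freedom. In fibroblasts 1463 of 12423 genes had an unadjusted p under 0.05 and DESeq2 called 280. In endothelial cells these counts were 1279 and 245.

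**Figure D4:**
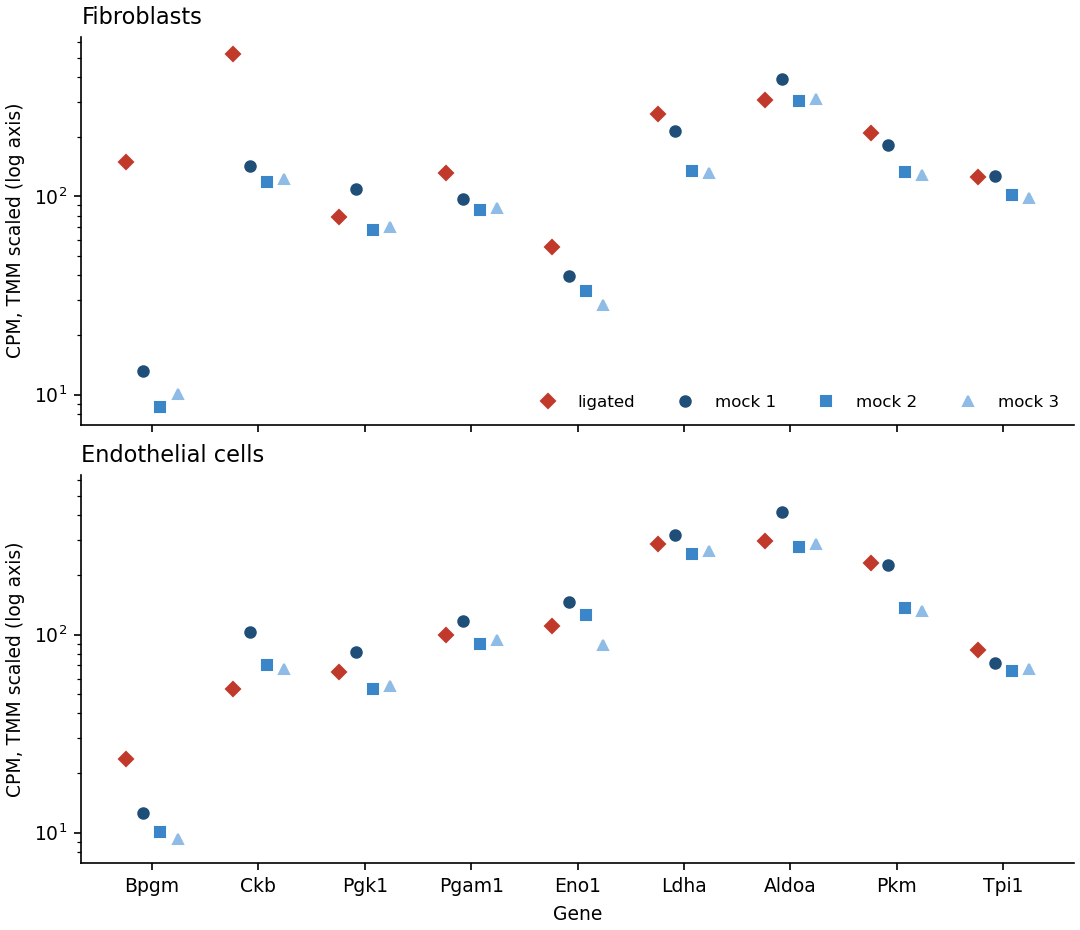
The 9 genes (x axis) in fibroblasts (top) and endothelial cells (bottom) by library, as CPM scaled by the TMM library size on a log y axis. Bpgm (149 CPM) and Ckb (520 CPM) of the ligated library stand apart from the mock libraries in fibroblasts, and in endothelial cells Ckb (53.4 CPM) lies below them.

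Fibroblasts and endothelial cells of the same libraries were set against each other with library as a block and a class by surgery term. With 1 ligated library, surgery cannot be told apart from other traits of that library. The log2 difference between the classes in ligated against mock, fibroblast minus endothelial, was 2.70 ± 0.21 for Bpgm, 2.62 ± 0.20 for Ckb and 0.86 ± 0.17 for Eno1. For Pgam1 it was 0.58 ± 0.16 and for Ldha 0.73 ± 0.23, and for Pgk1, Aldoa, Pkm and Tpi1 it lay between -0.05 and 0.02. Over mock 1 alone the differences were 2.55 for Bpgm, 2.81 for Ckb and 0.88 for Eno1. The term was called by edgeR for 3 of the 9 genes and for 535 of 15193 genes (3.52%). It comes from the contrast that chose the genes, so nothing is read from this count either.

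**Figure D5:**
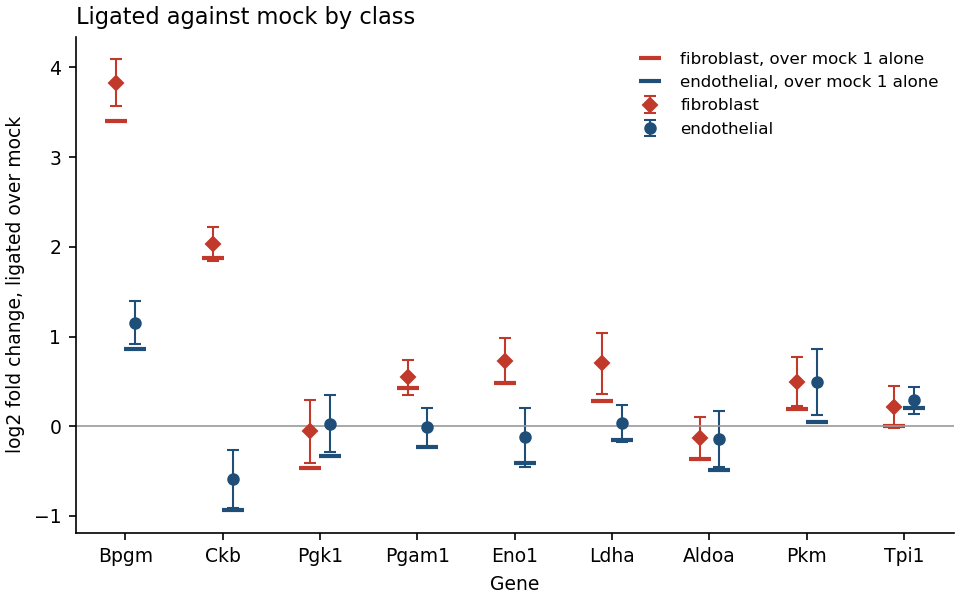
log2 fold change of the ligated over the mock libraries (y axis) for the 9 genes (x axis) in fibroblasts (diamonds) and endothelial cells (circles), with bars for the standard error and dashes for the ratio over mock 1 alone. Bpgm (3.83) and Ckb (2.03) stand apart in fibroblasts, and Ckb is negative in endothelial cells (-0.59).

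The other genes of these pathways were counted in fibroblasts in the same way, where 29.8% of all genes lay above and 28.7% below all mock libraries. Of 21 further glycolysis genes 14 passed the low count filter, 5 lay above and 3 below all mock libraries, and the median log2 fold change was -0.03. Gapdh, which makes the substrate of the Bpgm and Pgk1 steps, stood at 433 CPM against 351, 295 and 276, and Gpi1, glucose phosphate isomerase, at 119 against 105, 67.1 and 69.1. Pfkp, a platelet-type phosphofructokinase, stood below, at 47.8 against 72.9, 54.0 and 48.7. Of 8 glucose and lactate transport genes 1 lay above and 5 below, with a median of -0.35, Slc2a8 at 17.5 against 21.2, 21.2 and 21.6 among them. Of the 6 further creatine genes 4 passed the filter and 3 lay above. They included Gamt, the methyltransferase that completes creatine synthesis, at 33.4 against 22.6, 18.5 and 22.6, and Slc6a8, the creatine transporter, at 41.6 against 39.0, 23.9 and 23.9.

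Branches off glycolysis were mixed, where 29.8% of all genes in fibroblasts lay above and 28.7% below all mock libraries. Of 7 pentose phosphate genes 2 lay above and 2 below, with Taldo1, transaldolase, at 105.8 against 78.1, 79.3 and 88.2, and G6pdx, the entry enzyme, at 19.3 against 41.4, 23.0 and 27.9. Of 12 genes of pyruvate dehydrogenase and its kinases 2 lay above and 5 below, with Dlat at 28.9 against 39.5, 34.6 and 35.9. Of 14 nuclear genes of the respiratory chain 5 lay above and 3 below, with a median of 0.11. The cytochrome oxidase subunits Cox4i1, at 580 against 412, 385 and 393, and Cox5a, at 193 against 131, 119 and 122, were above.

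HIF target genes outside glycolysis were counted as a further list, many of them induced when oxygen is short. Of 16 genes 13 passed the filter, and 1 lay above and 5 below all mock libraries. Of all genes tested 29.8% lay above and 28.7% below, and nothing is read from the counts. The median log2 fold change of the list was -0.20, and -0.39 over mock 1 alone. Adm, adrenomedullin, a vasodilator peptide that hypoxia induces, stood at 19.9 CPM against 60.2, 99.9 and 92.0. Ndrg1 stood at 42.0 against 87.5, 62.3 and 62.6, Kdm3a, a histone demethylase, at 22.4 against 31.1, 46.5 and 39.7, and Mxi1 at 22.0 against 26.3, 41.8 and 39.7. Of the 10 genes of dissociation stress and the immediate early response, 4 lay above and 2 below. Jun, at 473 against 448, 249 and 190, and Hspa1a, at 40.1 against 38.1, 10.1 and 11.3, were both nearest to mock 1, and Egr1 was below, at 169 against 267, 276 and 282.

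In endothelial cells the same lists gave other counts. Of 14 further glycolysis genes tested 5 lay above and 1 below, of 7 transport genes 3 and 2, of 5 creatine genes 1 and 1, of 7 pentose phosphate genes 1 and 2, of 12 pyruvate dehydrogenase genes 2 and 7, of 15 HIF targets 2 and 7 and of 14 respiratory chain genes 1 and 7, where 29% of all genes lay above and 27.3% below. The medians of these lists lay between -0.34 and 0.30, against -0.04 over all genes. Slc16a1, which encodes the lactate and pyruvate transporter MCT1, stood at 20.0 CPM against 79.7, 53.9 and 57.0. Ddit4, a stress-induced inhibitor of mTOR signalling, stood at 65.6 against 46.4, 17.9 and 15.2, and Ndufa4, a subunit of the respiratory chain, at 484 against 614, 677 and 724. Whether a list differed between the classes was not tested.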

How the data were processed

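The authors deposited 1 matrix per library of unnormalized UMI counts, by gene and cell barcode. The build (mm10) and Cell Ranger 7.0.1 are named in the submitters' processing notes, while per the file headers the versions were 6.0.1 and 7.0.0. The sources used here do not say whether intronic reads were counted. Some genes differed along the header versions. Rora in fibroblasts stood at 185 CPM (unscaled) in the ligated library and 188 in mock 1. In mock 2 and 3 it stood at 1219 and 1313. Pooled mock values thus join libraries that may have been counted in unlike ways, which was not tested. Genes were joined by ID. Aldoa has a second ID with 3, 0, 9 and 8 UMIs, which was not used. The near-identical copy Eno1b had 250, 36, 80 and 110 UMIs, and how reads shared with Eno1 were counted is not given.

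Cells had at least 500 UMIs, 300 genes and at most 15% mitochondrial UMIs. Scrublet (scanpy 1.11.5) removed 5.31, 1.56, 1.88 and 0% of barcodes as doublets in the ligated library and mock 1, 2 and 3, so the caller failed in mock 3, which keeps its doublets. Clusters came from 2000 variable genes without the 9 genes, 30 principal components, 15 neighbours and the Leiden method (leidenalg 0.10.2) at a resolution of 1.0. The principal components were not corrected for library. They were named from listed markers by a scoring rule set after the clusters were seen, and "-like" holds for every class name. Clusters led by secretory genes of the gland were then left unnamed. They held 0.390, 0.687, 2.13 and 2.58% of cells that would have been endothelial and 0.287, 0.133, 0.198 and 0.323% that would have been NK or ILC1.

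Counts were summed per class and library and fitted with edgeR 4.0.16 (quasi-likelihood F test, TMM, filterByExpr, Benjamini-Hochberg adjustment at 0.05 over all genes), with DESeq2 1.42.0 as an alternative, in R 4.3.3. The spread is that of the 3 mock libraries, since there is 1 ligated library, and p-values measure only how these samples vary, which may be technical. The scripts were tested on simulated data. Intervals are exact (95%) and cover counting error only. Other settings tried were size factors, the filters on genes and cells, doublet handling, cluster resolution, a version term and leaving out each mock library. Removing the highest-scoring barcodes, 0.8% per 1000 barcodes, was chosen after seeing the data.

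The 9 genes, the lists and the markers were chosen with earlier results of these data known. Genes named from the lists are, in fibroblasts and endothelial cells, among the up to 4 per list with the largest log2 fold change of those with a mean of at least 20 CPM and a ligated value outside the mock range. Erythroid genes are named where set beside Bpgm, and for Bpgm and Ckb the 5 most alike genes. Values of some genes that these rules name are not reported here. The clusters at the resolution of 2.0 and the genes that lead them were described after their values were seen.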

Additional observations from a re-analysis of the deposited data

Results flagged for a closer look

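For 3 of the 9 genes the class by surgery term of edgeR's fit over 15193 genes set fibroblasts apart from endothelial cells. These are the values that chose Bpgm and Ckb, so they are repeated as a description. The log2 difference, fibroblast minus endothelial, was 2.70 for Bpgm, 2.62 for Ckb and 0.86 for Eno1. With 1 ligated and 3 mock libraries, Bpgm lay above all mock libraries in both classes taken whole. Ckb lay above them in fibroblasts and below them in endothelial cells. Eno1 lay above them in fibroblasts and within their range in endothelial cells. Within clusters this did not always hold. The Aqp1 cluster held most ligated endothelial cells but only 43 and 40 cells of mock 2 and 3. Bpgm there was at 27.2 CPM (unscaled) against 14.0, 27.5 and 17.7 in mock 1, 2 and 3. Ckb there was at 49.8 against 42.7, 41.2 and 35.3, above all mock libraries. In the Ccn5 and Apod cluster of fibroblasts Bpgm and Eno1 lay within the mock range. Over the settings tried the difference ranged from 2.60 to 2.77 for Bpgm, from 2.52 to 2.70 for Ckb, and for Eno1 from 0.80 to 0.94, which passed the threshold in 5 of 8 settings.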

How the results depend on the processing

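No paired analysis was possible because the labels of the groups share only 1 replicate number. The counts of genes called were 0 in each class, and stayed 0 with other size factors, at least 1000 UMIs per cell, no doublet removal and either other resolution. DESeq2 called 280 genes in fibroblasts, 245 in endothelial cells, 1 in mural cells, 42 in NK or ILC1 cells, 101 in T cells and 78 in macrophages or monocytes. A term for the software version, which rests on the ligated library against mock 1, gave 2586, 5099, 215, 1220, 551 and 270 in the same order. Without the low count filter there were 22 in fibroblasts, 1 in NK or ILC1 cells, 70 in T cells and 6 in macrophages or monocytes, and with the highest-scoring barcodes removed 2 in macrophages or monocytes. Leaving out 1 mock library gave 0 to 6502 in fibroblasts, 0 to 8892 in endothelial cells, 0 to 809 in mural cells, 0 to 6717 in NK or ILC1 cells, 0 to 3789 in T cells and 1 to 2218 in macrophages or monocytes, with 0 in each class but T cells (1) and macrophages or monocytes (1 and 4) unless mock 1 was left out, when the spread comes from mock 2 and 3 alone. The class by surgery term was called for 535 genes, 845 without the low count filter and 90 to 4193 leaving out 1 mock library, the least without mock 3 and the most without mock 1. The cause of the other shifts was not tested.

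The log2 fold change of Bpgm in fibroblasts ranged from 3.50 to 3.99 and that of Ckb from 1.88 to 2.11, and 7 of the 9 genes kept 1 sign there under every setting. Pgk1 (-0.47 to 0.19) and Tpi1 (-0.0023 to 0.34) did not. Bpgm per 1000 haemoglobin UMIs in ligated fibroblasts was 2395 with no doublet removal. The share with a Bpgm UMI was 1.06 percentage points lower in ligated fibroblasts with a haemoglobin UMI, and with a split at 3 haemoglobin UMIs it was 20.0 points higher, from 12 cells. Bpgm in mock fibroblasts rests on 28 to 40 UMIs, which limits the precision of its mock level.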

Other observations

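Glia of peripheral nerves were too few in mock 1 to be summed. Their Bpgm level was 40.4 CPM (unscaled, 95% interval 29.8 to 53.5) in 314 ligated cells, 11.6 CPM in 44 mock 2 cells and 232 CPM in 51 mock 3 cells. The mock 3 glia also had 76968 CPM of haemoglobin (14566 UMIs beside 44 of Bpgm), against 94.2 CPM in the ligated and 914 CPM in the mock 2 glia. Ckb in glia was 240 CPM in the ligated library and 384 and 497 CPM in mock 2 and 3. In group 2 innate lymphoid cells (ILC2) Bpgm was 19.6 CPM in the ligated library and 20.5, 26.5 and 23.8 CPM in mock 1, 2 and 3. In 63 ligated epithelial cells that escaped the depletion Ckb was 350 CPM. In macrophages or monocytes of mock 1 haemoglobin stood at 8238 CPM, against 324 CPM in the ligated library, while Bpgm was 13.6 CPM (5.48 to 28.1) and 7.89 CPM.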
